A study of Mus musculus with 12 samples.

Results

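The genes described are 9 components of insulin and insulin-like growth factor (IGF) signalling, chosen by symbol from the 13232 genes of the table: the ligand *Igf1*, the binding protein *Igfbp4*, the receptors *Igf1r*, *Insr* and *Igf2r*, the adaptor *Irs2*, the kinase *Akt1* and the transcription factors *Foxo1* and *Foxo3*. All 9 had a row. RNA was measured in bone marrow-derived macrophages, grown from whole marrow with 20 ng/ml of M-CSF, from WT C57B6/J mice. The mice had eaten either the diet that the labels call normal (ND) or one high in fat (HFD). Both groups compared here, 3 libraries each, had been in serum-free medium from day 4 and at 1% oxygen for 1 h on day 7, so no normal-oxygen reference stands beside them. The labels give no age, and do not say whether the libraries of a diet came from separate mice, so p-values measure only the spread between these libraries.

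IGF-1 and insulin bind related receptor tyrosine kinases, which phosphorylate IRS adaptors and so recruit PI3-kinase and activate AKT. AKT phosphorylates the FOXO factors and keeps them out of the nucleus, where they would otherwise switch on genes that include *Irs2* and *Insr*. Macrophages are a known source of IGF-1 outside the liver, and IRS2 relays insulin and interleukin-4 signals in them.

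Estimated depths were 19045500 to 22806300 reads on ND, lowest in replicate 3, and 23018400 to 24490000 reads on HFD, so that every HFD library was the deeper before scaling. When libraries were weighted by how well they fitted their group, ND replicate 3 had the lowest weight (0.441) and HFD replicate 2 the highest (3.09). All 8 macrophage markers were in the table, with summed normalized values of 345313 to 395574 in ND and 342872 to 402478 in HFD. Of 8 stromal markers 3 had values, summing to 177 to 549 in ND and 51.8 to 337 in HFD, and of 10 neutrophil markers 6, summing to 1712 to 2455 in ND and 2109 to 3430 in HFD. Of 5 endothelial markers 2 (*Vwf* and *Kdr*) had values, summing to 2509 to 3779 in ND and 2259 to 2296 in HFD, ranges that do not overlap. Of the other lists, 1 of 5 B cell markers (*Ighm*, 1889 to 3061 in ND and 1876 to 2075 in HFD), 1 of 5 dendritic cell markers (*Itgax*, 1139 to 2131 in ND and 2072 to 3071 in HFD) and 5 of 5 proliferation markers (sums of 8715 to 9628 in ND and 7394 to 10475 in HFD) had values. The part of depth and of these markers in the differences described here was not tested. No member of the adipocyte, T cell or erythroid lists had a value.

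None of the 9 genes differed between the diets past the threshold, a Benjamini-Hochberg adjusted p of 0.05 in limma's fit of 13232 genes, where 0.0% of all genes passed. The lowest adjusted p was 0.357 and the highest 0.939. *Igf1* and *Igf2r* were the 2 members whose HFD libraries all lay above all ND libraries, their means being 15.9% and 14.4% higher. No overlap between the diets was found for 2 of the 9 members (14.5% of all genes, 7.44% with HFD above), and the same 2 had an unadjusted p under 0.05 (10.6% of all genes, 5.4% higher in HFD). That count of 2 was 0 without HFD replicate 2 (5.49% of all genes), 1 without ND replicate 1 (5.29%), ND replicate 2 (8.01%) or HFD replicate 3 (9.17%), and 4 without ND replicate 3 (17.5%) or HFD replicate 1 (12.6%). It was 4 with limma array weights (27.6%), 3 with the replicate block (11.4%), and 1 after scaling to the column total (10.5%), after quantile normalization (10.5%) or without limma's trend (9.5%). The median log2 fold change of the 9 was -0.075 (all genes: -0.0034), and the median of its absolute size was 0.15 (all genes: 0.092). In bulk RNA, fewer cells of a type and less RNA per cell cannot be told apart.

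**Figure D1:**
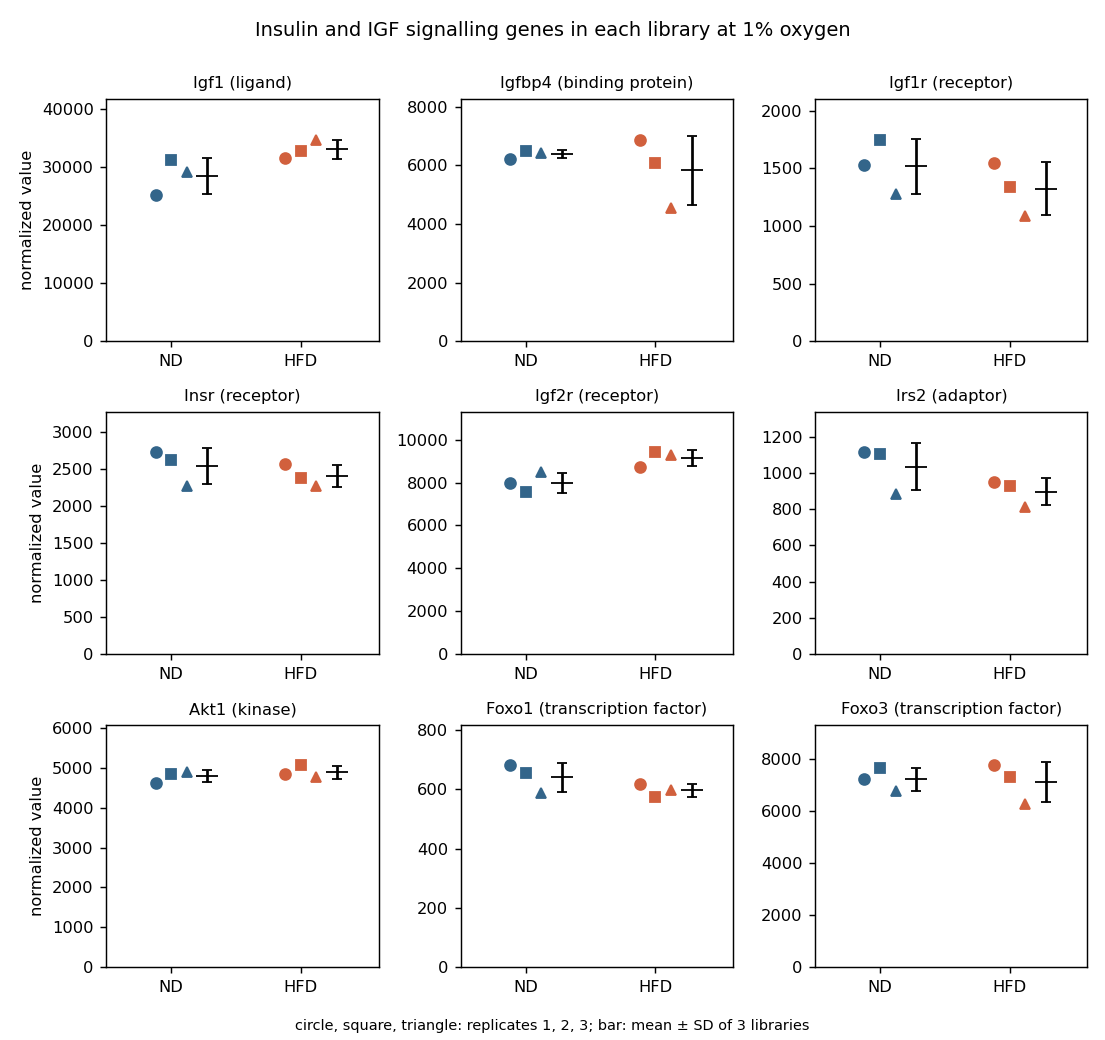
Normalized value (y axis, from 0) of each gene in the 3 ND and 3 HFD libraries, with the mean and SD of each diet beside the points. The *Igf1* and *Igf2r* panels show HFD points that all lie above the ND points, and the other 7 panels show overlapping diets.

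The upstream sequences of *Igf2r* and *Irs2* are shown because these were the receptor with no overlap between the diets and the member with the lowest fold change. Each is the 250 bases before the RefSeq start site (GRCm38.p6), written 5′ to 3′ on the gene's strand, with capitals at matches to a searched motif.
Igf2r: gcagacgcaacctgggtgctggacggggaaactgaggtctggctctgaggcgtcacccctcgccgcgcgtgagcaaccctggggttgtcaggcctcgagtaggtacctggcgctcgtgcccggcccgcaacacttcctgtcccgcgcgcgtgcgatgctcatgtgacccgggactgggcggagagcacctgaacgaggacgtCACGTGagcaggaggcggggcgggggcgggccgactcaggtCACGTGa
Irs2: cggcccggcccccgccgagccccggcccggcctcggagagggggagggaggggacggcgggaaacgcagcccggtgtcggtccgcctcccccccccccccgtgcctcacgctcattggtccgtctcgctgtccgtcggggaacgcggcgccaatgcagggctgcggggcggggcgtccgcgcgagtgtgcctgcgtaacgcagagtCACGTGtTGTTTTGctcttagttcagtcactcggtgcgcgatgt
The *Igf2r* window is chr17:12769707-12769956, minus strand, and the *Irs2* window is chr8:11008930-11009179, minus strand. The motifs searched on both strands were GTAAACA (the FOXO site), CAAAACA (an insulin response sequence to which FOXO factors bind) and CACGTG (the E-box, its own reverse complement), none of which overlap.

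The *Igf2r* window held the E-box 2 times, ending 43 and 2 bases before the start site, and the *Irs2* window held it once, ending 39 bases before it. The E-box occurs in 6.02% of 32851 windows of this length. The *Irs2* window also held the insulin response sequence, read as TGTTTTG, ending 31 bases before the start site, a motif in 5.56% of all windows. The FOXO site (3.17% of all windows) was matched in 1 of the members' 9 windows, a start site of *Akt1*, 155 bases before it. The other members with an entry, *Igf1*, *Igfbp4*, *Igf1r*, *Foxo1* and *Foxo3*, had no match to these letters. Among them, *Igf1* also had no overlap between the diets, and *Igf1r* had a log2 fold change close to that of *Irs2*. The windows shown were those with the most matches. A match is a description of the letters and not evidence of binding. *Insr* was not among the 8 members with an entry.

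*Igf1* encodes the secreted growth factor IGF-1 and lies at chr10:87858265-87937042 on the plus strand (GENCODE M21, GRCm38). In replicate order, as for each gene that follows, the normalized values were 25066, 31197 and 29085 on ND and 31526, 32738 and 34672 on HFD. Every HFD library was higher than every ND library, though HFD replicate 1 and ND replicate 2 lay close together. The means were 28449 ± 3115 (SD, n = 3) on ND and 32979 ± 1587 (SD, n = 3) on HFD. The log2 fold change was 0.22 (SE 0.092, 95% interval 0.012 to 0.42), with a limma Benjamini-Hochberg adjusted p of 0.443. The exact two-sided permutation p was 0.1, the smallest that 3 against 3 libraries allow. Without ND replicate 1, the lowest library, the log2 fold change was 0.13, and after quantile normalization it was 0.14. The antisense gene *Igf1os* overlaps *Igf1*, at 46.0 to 58.9 over the 6 libraries.

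*Igfbp4* encodes an IGF-binding protein that holds IGF-1 away from its receptor until it is cleaved, and lies at chr11:99041244-99054392 on the plus strand. Normalized values were 6234, 6509 and 6418 on ND and 6884, 6067 and 4558 on HFD. The ND libraries were close together, and the HFD libraries held both the highest and the lowest of the 6. HFD less ND was a log2 fold change of -0.15 (SE 0.13, 95% interval -0.43 to 0.13, limma Benjamini-Hochberg adjusted p 0.718), and without HFD replicate 3 it was 0.017. The lower HFD mean, 5836 ± 1180 against 6387 ± 140 on ND (SD, n = 3), therefore rests on that 1 library. The other ligands of the pathway list (*Igf2*, *Ins1*, *Ins2*) and its other 10 binding proteins and their proteases had no row and were not analysed here.

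Of the receptors, *Igf2r* encodes the cation-independent mannose 6-phosphate receptor, which carries lysosomal enzymes to the lysosome and clears IGF-2 from the cell surface without passing on an IGF signal. It lies at chr17:12682406-12769664 on the minus strand. Its normalized values were 7961, 7551 and 8473 on ND and 8737, 9409 and 9295 on HFD. Again every HFD library was higher than every ND library, with ND replicate 3 the nearest to HFD. The means were 7995 ± 462 (SD, n = 3) on ND and 9147 ± 360 (SD, n = 3) on HFD. The log2 fold change was 0.20 (SE 0.066, 95% interval 0.046 to 0.34), with a limma Benjamini-Hochberg adjusted p of 0.357, the lowest among the members. The exact two-sided permutation p was 0.1, the smallest possible. With limma array weights it passed (log2 fold change 0.23, Benjamini-Hochberg adjusted p 0.0292), in a fit in which 1133 genes passed, and the adjusted p reached 0.930 in another alternative. The antisense RNA *Airn* overlaps *Igf2r*, at 131 to 159 over the 6 libraries, and use of strand in the counting is not given in the sources used here.

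*Igf1r*, the tyrosine kinase receptor of IGF-1, lies at chr7:67952827-68233668 on the plus strand. Its normalized values were 1525, 1749 and 1273 on ND and 1550, 1334 and 1087 on HFD. The diets overlapped widely, and the third library of each diet was its lowest. This gave a log2 fold change of -0.20 (SE 0.14, 95% interval -0.51 to 0.11, limma Benjamini-Hochberg adjusted p 0.662). It ran from -0.32 to -0.064 when 1 library was left out, the smallest without HFD replicate 3.

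*Insr*, the insulin receptor, lies at chr8:3122061-3279617 on the minus strand. Libraries read 2723, 2624 and 2264 on ND and 2565, 2376 and 2269 on HFD. ND replicate 3 was the lowest of all 6 libraries, and the other 2 ND libraries were the highest. A log2 fold change of -0.075 resulted (SE 0.082, 95% interval -0.26 to 0.11, limma Benjamini-Hochberg adjusted p 0.794). Without ND replicate 3 it was -0.16, and without ND replicate 1 it was -0.022.

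*Irs2* encodes the adaptor that couples both receptor kinases to PI3-kinase, and lies at chr8:10984681-11008458 on the minus strand. Libraries read 1113, 1106 and 883 on ND and 951, 927 and 813 on HFD. ND replicates 1 and 2 were above all HFD libraries, while ND replicate 3 lay among them. The means were 1034 ± 130 (SD, n = 3) on ND and 897 ± 73.8 (SD, n = 3) on HFD. The log2 fold change was -0.20 (SE 0.10, 95% interval -0.43 to 0.030), with a limma Benjamini-Hochberg adjusted p of 0.545. Without ND replicate 3 it was -0.31, with a limma Benjamini-Hochberg adjusted p of 0.106, and without HFD replicate 3 it was -0.13. Its limma adjusted p lay between 0.0811 and 0.965 over all alternatives.

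*Akt1*, the kinase downstream of PI3-kinase, lies at chr12:112653821-112674884 on the minus strand. Normalized values were 4630, 4866 and 4905 on ND and 4845, 5073 and 4771 on HFD. The highest library was 1.10 times the lowest, the narrowest range of the 9 members, and the SD within diets on the log2 scale (0.046) was at the 5.77th percentile of all genes. Its log2 fold change was 0.029 (SE 0.058, limma Benjamini-Hochberg adjusted p 0.903), and 0.0027 to 0.047 with 1 library left out. Its 95% interval, -0.10 to 0.16, leaves out diet differences beyond that range at this spread, counting each library as independent.

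*Foxo1* and *Foxo3* encode the forkhead factors that AKT inactivates. *Foxo1* lies at chr3:52268336-52353221 on the plus strand and *Foxo3* at chr10:42181841-42276755 on the minus strand. The normalized values of *Foxo1* were 681, 654 and 586 on ND and 618, 574 and 597 on HFD. ND replicates 1 and 2 were the highest, and ND replicate 3 lay among the HFD libraries, as for *Irs2*. The unclassified gene *Gm38034* overlaps *Foxo1* on the same strand, at 24.5 to 47.2 over the 6 libraries. For *Foxo1* the log2 fold change was -0.10 (SE 0.080, 95% interval -0.28 to 0.079, limma Benjamini-Hochberg adjusted p 0.706). Leaving out ND replicate 1 gave -0.055, and leaving out ND replicate 3 gave -0.16. The normalized values of *Foxo3* were 7223, 7632 and 6757 on ND and 7747, 7280 and 6241 on HFD. The HFD libraries held both ends of the range, and the log2 fold change was -0.027 (SE 0.087, 95% interval -0.22 to 0.17, limma Benjamini-Hochberg adjusted p 0.939). Its sign turned without ND replicate 2 (0.015) or HFD replicate 3 (0.062).

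**Figure D2:**
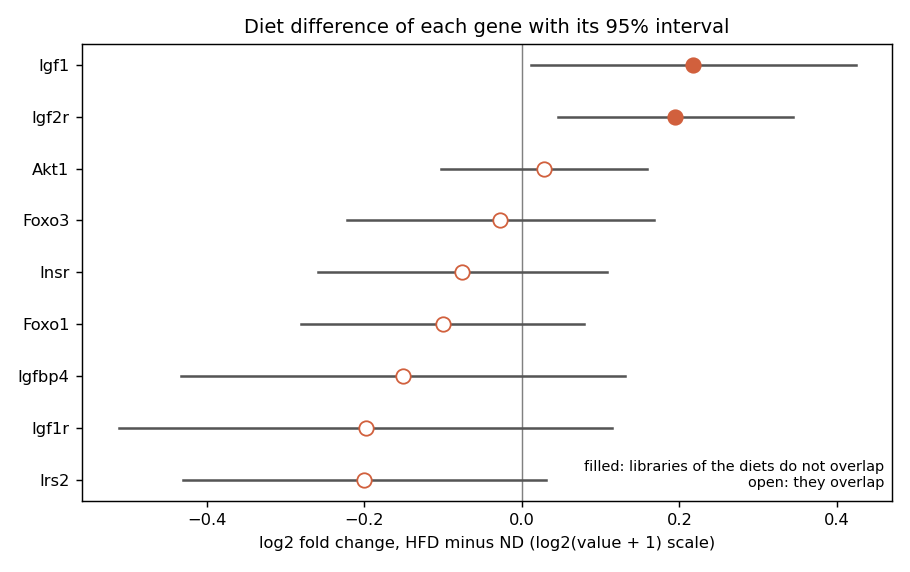
Log2 fold change (HFD minus ND, x axis) of the 9 genes with limma's 95% interval as a line, sorted by size. The intervals of *Igf1* and *Igf2r* lie above 0 before adjustment for the number of genes tested, and those of the other 7 include 0.

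Libraries of the same diet also differed from each other. HFD replicate 3 was the lowest of all 6 libraries for 4 members, *Igfbp4*, *Igf1r*, *Irs2* and *Foxo3*, and the highest for *Igf1*. ND replicate 3 was the lowest ND library for 5 members, *Igf1r*, *Insr*, *Irs2*, *Foxo1* and *Foxo3*. Of the 9 members *Igf1r* varied most within diets, with an SD on the log2 scale of 0.24, at the 84.0th percentile of all genes, followed by *Igfbp4* (0.22, the 79.5th percentile). Counting error was smaller: at the library with the fewest estimated reads of the gene it is 3.05% of the value for *Igf1r* and at most 4.49% for any member (*Foxo1*), and it covers counting only.

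**Figure D3:**
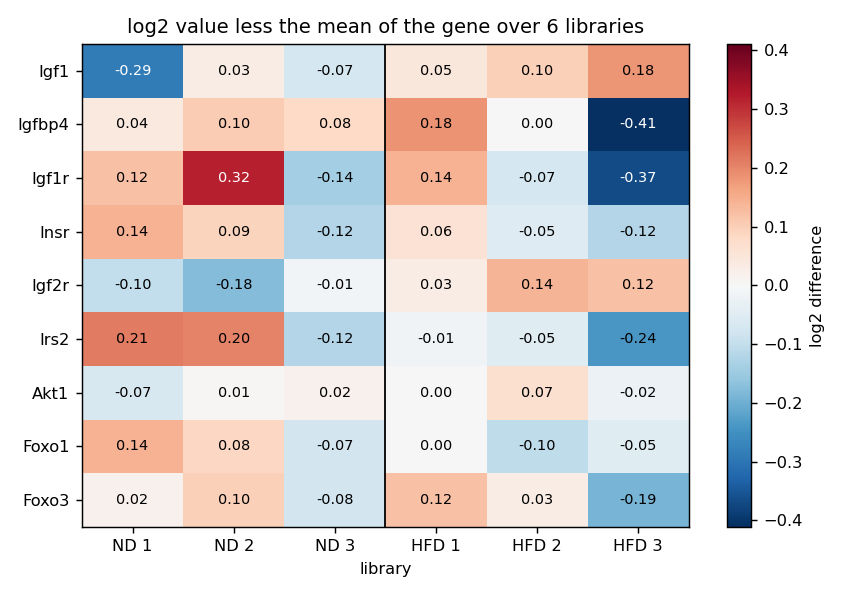
Log2 value of each gene (rows) in each library (columns) less that gene's mean over the 6 libraries, with the vertical line between ND and HFD. The values reach 0.32 for *Igf1r* in ND replicate 2 and -0.41 for *Igfbp4* in HFD replicate 3, and within each diet replicate 3 is the lowest for *Igf1r*, *Insr*, *Irs2* and *Foxo3*.

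Differences between members within a library do not depend on a scaling factor per library, and 5 were compared, with p-values adjusted over them by Benjamini-Hochberg. On the log2 scale *Igf1* less *Igf1r*, ligand against receptor, was 4.04, 4.16 and 4.51 on ND and 4.35, 4.62 and 4.99 on HFD. The HFD mean was 0.42 higher, but ND replicate 3 lay above HFD replicate 1 (exact two-sided permutation p 0.2, adjusted 0.333). *Igf1* less *Igfbp4* was 2.01, 2.26 and 2.18 on ND and 2.20, 2.43 and 2.93 on HFD. Here the HFD mean was 0.37 higher with overlap between the diets (exact permutation p 0.2, adjusted 0.333), and 0.16 higher without HFD replicate 3. *Insr* less *Irs2*, receptor against adaptor, was 1.30 ± 0.056 on ND and 1.42 ± 0.062 on HFD (SD, n = 3, exact permutation p 0.2, adjusted 0.333), and ND replicate 3 (1.357) lay just above HFD replicate 2 (1.356). *Igf1r* less *Insr* was -0.75 ± 0.14 on ND and -0.87 ± 0.17 on HFD (SD, n = 3, exact permutation p 0.5, adjusted 0.6). *Foxo1* less *Foxo3* was -3.49 ± 0.075 on ND and -3.56 ± 0.16 on HFD (SD, n = 3, exact permutation p 0.6, adjusted 0.6). None of the 5 could pass 0.05, since 3 against 3 libraries allow no p under 0.1.

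To set levels of different genes side by side, each normalized value was divided by the length in kb of the gene's longest coding transcript in GENCODE M21. Per kb, *Igf1* was highest, at 3554 to 4917 over the 6 libraries, above every library of any other member. *Akt1* followed with a mean of 1802 ± 54.6 per kb (SD, n = 6 libraries) and *Igfbp4* with 1595 ± 211, and their ranges overlapped. *Foxo3* (1044 ± 82.4 per kb) and *Igf2r* (964 ± 82.3 per kb) likewise overlapped each other. *Insr* stood alone at 264 ± 20.8 per kb, above *Irs2* (153 ± 19.1 per kb) and *Igf1r* (124 ± 20.6 per kb), which overlapped. *Foxo1* was lowest, at 71.4 ± 4.82 per kb, with no overlap with the members above it. Over the combined exons of all transcripts *Igfbp4* (1384 per kb) came before *Akt1* (1183 per kb), with the order otherwise the same, but *Insr* then overlapped *Irs2*, and *Igf1r* overlapped *Foxo1*.

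For *Igf1*, *Insr* and *Irs2* the genes with the most similar pattern were sought among 10793 others with a mean of at least 100, by the root mean square difference of log2 values, each less its gene's mean, over the 6 libraries. Nearest to *Igf1* were *Csrnp2* (0.030), *Tmed5* (0.031) and *Cacna1d* (0.032), against a median of 0.18 over the 10793 genes searched. Nearest to *Insr* were *Trim39* (0.020), *Ubxn7* (0.021) and *Gpn3* (0.025), against a median of 0.15. Nearest to *Irs2* were *Crebrf* (0.020), *Enpp1* (0.021) and *Rab9* (0.024), against a median of 0.19. *Enpp1* encodes a membrane phosphodiesterase known to bind and inhibit the insulin receptor. Among so many genes and over 6 libraries, close patterns of this kind describe these libraries only.

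Of 93 further genes of the pathway, listed by role, 66 had a row and were tested. The other 27 had no row and were not analysed here. None of the 66 passed 0.05 after limma's fit and Benjamini-Hochberg adjustment over all genes, and 8 had an unadjusted p under 0.05, 7 higher and 1 lower in HFD. That is 12.1% of the 66, against 10.6% of all genes. The 8 became 4 without ND replicate 2 (8.01% of all genes) or HFD replicate 2 (5.49%), 15 without ND replicate 3 (17.5%) and 13 without HFD replicate 1 (12.6%). They became 21 with limma array weights (27.6% of all genes), 12 with the replicate block (11.4%) and 5 without limma's trend (9.5%). With array weights 7 of the 66 passed after adjustment, *Shc1*, *Tbc1d4*, *Cat*, *Bcl6*, *Sod2*, *Trib3* and *Deptor*, in a fit in which 1133 of all genes did. The diets did not overlap for 7 of the 66, or 10.6%, against 14.5% of all genes. All 7 had HFD above ND, as did 7.44% of all genes. The median log2 fold change was 0.018, with 39 higher and 27 lower (all genes: 6470 higher and 6762 lower). Without HFD replicate 2 the split of the 66 was 32 and 34.

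Among the receptor adaptors 7 of 12 were tested, 5 higher and 2 lower in HFD. *Shc1*, which links receptors to RAS, had 1413, 1392 and 1551 on ND and 1674, 1806 and 1777 on HFD. All HFD libraries were above all ND libraries, with a log2 fold change of 0.27 (SE 0.067) and a limma Benjamini-Hochberg adjusted p of 0.260. It passed without ND replicate 3 (log2 fold change 0.32, limma Benjamini-Hochberg adjusted p 0.0461), in a fit in which 233 of all genes passed. With limma array weights it also passed (0.32, 0.00995), as did 1133 of all genes. The adjusted p of *Shc1* reached 0.879 in another alternative. *Sh2b1*, an adaptor of the insulin receptor, had a log2 fold change of -0.12 (SE 0.077) with overlapping diets, and one of -0.061 without HFD replicate 3.

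Among PI3-kinase subunits and PDK1, 4 of 6 were higher in HFD. *Pik3cb*, a catalytic subunit, had a log2 fold change of 0.22 (SE 0.088) and *Pik3r1*, the main regulatory subunit, one of -0.16 (SE 0.080), both with overlapping diets. Of the AKT kinases and mTORC2 components 4 of 5 were higher (all genes: 6470 higher and 6762 lower). *Mlst8*, a subunit of both mTOR complexes, was at 295 ± 19.3 (SD, n = 3) on ND and 343 ± 18.7 (SD, n = 3) on HFD with no overlap.

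In the TSC and mTORC1 group 7 of 11 were higher in HFD and none had an unadjusted p under 0.05 (10.6% of all genes). *Deptor*, an inhibitor of mTOR, had a log2 fold change of -0.24 (SE 0.12) and *Eif4ebp2*, a translation repressor inactivated by mTORC1, one of -0.18 (SE 0.096). Without ND replicate 2 the value for *Deptor* was -0.16, and without HFD replicate 3 that for *Eif4ebp2* was -0.11. Among the phosphatases and other brakes 5 of 9 were higher, again with no unadjusted p under 0.05 (10.6% of all genes). *Trib3*, a pseudokinase that binds AKT, had a log2 fold change of 0.50 (SE 0.23) at low values of 67.5 to 142. Leaving out ND replicate 2 gave 0.32, and leaving out ND replicate 3 gave 0.76. *Phlpp2*, an AKT phosphatase, had one of -0.12 (SE 0.094), or -0.055 without HFD replicate 2.

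The gene of the list with the lowest log2 fold change was *Tbc1d4*, also known as AS160, the AKT substrate through which insulin releases GLUT4 vesicles in muscle and fat. Its normalized values were 967, 1154 and 815 on ND and 860, 685 and 633 on HFD. HFD replicate 1 lay above ND replicate 3, and the other HFD libraries lay below all ND libraries. On the log2 scale the fold change was -0.43 (SE 0.14, limma Benjamini-Hochberg adjusted p 0.340, or 0.0220 to 0.904 over the alternatives, lowest with array weights). *Gsk3a*, a kinase that AKT inhibits, was at 1300 ± 22.2 (SD, n = 3) on ND and 1421 ± 27.9 (SD, n = 3) on HFD with no overlap, a log2 fold change of 0.13 (SE 0.059). In the RAS-ERK arm 7 of 10 were higher, none with an unadjusted p under 0.05 (10.6% of all genes). *Map2k1* had a log2 fold change of 0.13 (SE 0.088) and overlapped between the diets. With ND replicate 2 left out the log2 fold change of *Map2k1* was 0.076, and with ND replicate 3 left out 0.22.

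Of the FOXO group, *Foxo4* had a log2 fold change of -0.14 (SE 0.079), or -0.090 without HFD replicate 3. Of 15 textbook targets of FOXO factors 12 were tested, and 4 were higher and 8 lower on HFD (median log2 fold change -0.13). The 4 higher ones, 33.3% of the 12, had an unadjusted p under 0.05 (10.6% of all genes, 5.4% higher in HFD), and the 8 lower ones did not. This count depended on the libraries. Without ND replicate 3 it was 2 higher and 4 lower (all genes: 9.01% higher and 8.44% lower), without HFD replicate 1 it was 2 and 3 (6.44% and 6.18%), and without HFD replicate 2 it was 2 and 0 (2.74% and 2.75%). After scaling to the column total it was 2 higher and 1 lower (4.75% and 5.76% of all genes), and it was 2 and 0 after quantile normalization (5.43% and 5.03%) or without limma's trend (4.58% and 4.92%). With limma array weights it was 4 higher and 4 lower (13.7% and 13.9% of all genes), and with the replicate block 4 and 2 (5.77% and 5.62%). *Cat*, encoding catalase, was at 12428, 15589 and 14202 on ND and 16017, 18547 and 17520 on HFD. The diets did not overlap, with a log2 fold change of 0.31 (SE 0.093, limma Benjamini-Hochberg adjusted p 0.318, or 0.0184 to 0.910 over the alternatives, lowest with array weights). *Bcl6*, encoding a transcriptional repressor, was at 1323 ± 25.7 (SD, n = 3) on ND and 1526 ± 96.9 (SD, n = 3) on HFD, also without overlap. The other higher targets, named after their values were seen, were *Sod2* (log2 fold change 0.19, SE 0.084), which overlapped, and *Txnip* (log2 fold change 0.17, SE 0.069, or 0.093 after quantile normalization), which did not.

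**Figure D4:**
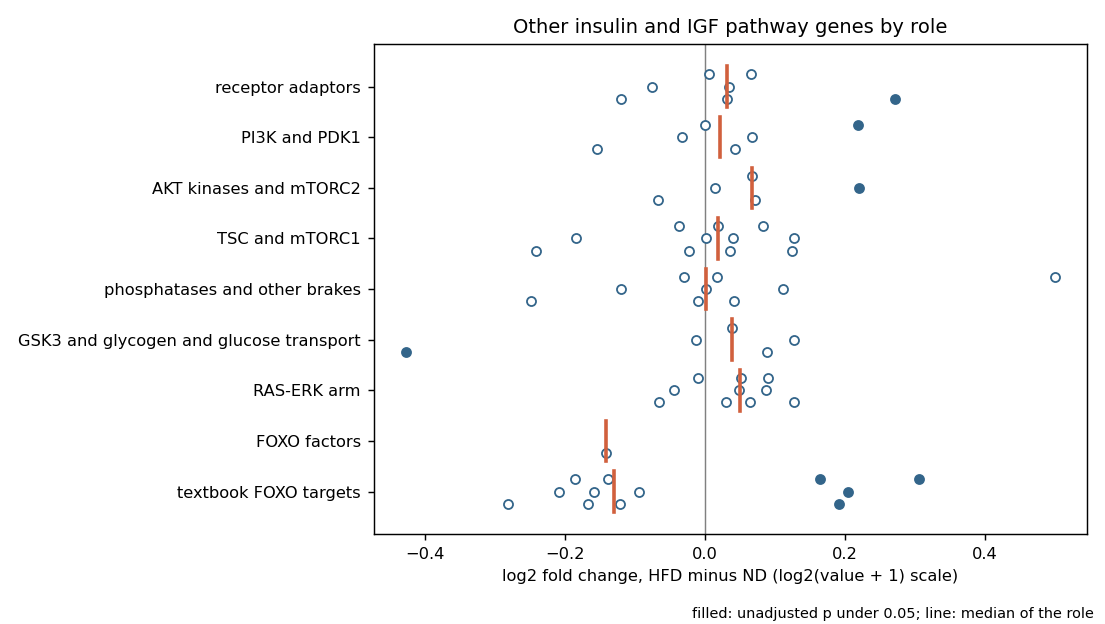
Log2 fold change (HFD minus ND, x axis) of the 66 other pathway genes by role, 1 point per gene, with the median of each role as a vertical line. Filled points (unadjusted p under 0.05) number 8, with *Tbc1d4* at -0.43 the only one below 0 and 4 of the 8 among the FOXO targets.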

How the data were processed

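The deposited values used here are a normalized signal per gene in 6 libraries. Per the submitters' processing notes, STAR, Partek and the mm10 build were used; the counter, annotation and filters are not given in the sources used here. The deposited values behave as estimated gene counts divided by a size factor: 56.6% to 57.6% of values between 5 and 300 were within 0.02 of a whole multiple of 1 step per library, against 3.92% to 3.95% at a typical step. Whole reads were not recovered and no count test was run. Estimated reads are the column sum divided by that step. Libraries were prepared from 100 ng of total RNA after ribosomal RNA removal and read as single ends of 75 bases.

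The letters NC in a column's name were read as ND, and the number after the first hyphen as the replicate. The number joined to the diet's letters is the same in all 6 columns, and its meaning is not given. The labels describe 12 libraries, and the 6 normal-oxygen ones were not analysed here. All 13232 genes were fitted on log2(value + 1) with limma 3.58.1 in R 4.3.3 (mean-variance trend, two-sided), with Benjamini-Hochberg adjustment over all genes and a threshold of 0.05. SE and 95% intervals are limma's moderated ones. This scale understates changes of low genes. Tested on simulated libraries of equal quality, the fit called 89.2% of 481 genes given a log2 change of 1 (13232 genes fitted, 5 simulations). Changes of the size seen in the members, at most 0.22, were not simulated, so this rate does not describe them. Single values were compared by exact permutation over libraries. Alternatives changed the pseudocount (0.1), the filter on low values, the scaling, the trend, the library weights, a replicate term and each library in turn.

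Members and lists were chosen with earlier results of these data known. Genes named from the pathway list are the 2 with the smallest p per role (some are not reported here), *Sod2* and *Txnip*, added after their values were seen, and the 3 nearest in pattern to *Igf1*, *Insr* and *Irs2*. mm10 is GRCm38, so coordinates come from GENCODE M21 and RefSeq on that build.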

Additional observations from a re-analysis of the deposited data

How the results depend on the processing

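Of 126 values of the 9 members under 14 alternatives, 122 kept their direction and their side of the threshold. The exceptions were *Igf2r*, which passed with limma array weights (0.23), *Foxo3*, which took the other sign without ND replicate 2 (0.015) and without HFD replicate 3 (0.062), and *Igfbp4*, which did so without HFD replicate 3 (0.017). With 1 library left out, *Foxo3* ran from -0.094 to 0.062 and *Igfbp4* from -0.28 to 0.017. The median over the 9 members (-0.075) ran from -0.15 to 0.017 when 1 library was left out, and no member passed in those fits. Unadjusted p under 0.05 held for 0 to 4 members and 4 to 15 pathway genes in those fits, and for 4 and 21 with array weights. The pathway median (0.018) ran from -0.0058 to 0.029, with 0 to 1 genes passing.

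With array weights 1133 genes passed, 3646 had an unadjusted p under 0.05, and 1 member and 7 pathway genes passed. The count of 0 genes ran from 0 to 233 with 1 library left out, the highest without ND replicate 3, and the unadjusted count of 1401 from 700 to 2309 (lowest without ND replicate 1, 726 without HFD replicate 2, highest without ND replicate 3). The cause was not tested. Scaling to the column total moved the median of all genes from -0.0034 to -0.016 and the pathway split from 39 higher and 27 lower to 35 and 31 (32 and 34 without HFD replicate 2); the unadjusted genes split into 628 higher and 762 lower, against 715 and 686.

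The replicate block gave 31 genes, with no member and no pathway gene among them. Deviations from the diet means correlated at 0.089, -0.11 and 0.027 between libraries sharing a number. The labels name no pairing, and correlations over so few libraries cannot show whether such libraries shared a preparation. The differences within libraries kept their sign in all settings run, from -0.20 to -0.029 for *Igf1r* less *Insr*, -0.16 to -0.025 for *Foxo1* less *Foxo3*, 0.16 to 0.53 for *Igf1* less *Igfbp4*, 0.096 to 0.16 for *Insr* less *Irs2* and 0.25 to 0.57 for *Igf1* less *Igf1r* with 1 library left out.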
